A study of Mus musculus with 4 samples.

Results

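The genes described here encode the subunits of the transcription factor NF-kB (*Rela*, *Rel*, *Relb*, *Nfkb1* and *Nfkb2*), the inhibitors that hold it in the cytoplasm (*Nfkbia*, *Nfkbib* and *Nfkbie*), the nuclear regulator *Nfkbiz* and the ubiquitin-editing enzyme *Tnfaip3*, also called A20. They were taken by gene name from the non-control probes of the array, which gave 16 of 39429 probes and 10 of 29676 gene names. Each probe was kept as a measurement of its own, since probes of *Nfkb1* and of *Nfkbib* changed by different amounts. Messenger RNA was measured in astrocyte-enriched cultures (AECs), which are mixed glial cells from the cerebral cortex of newborn ICR mice that had been treated with PLX3397, an inhibitor of the receptor *Csf1r*, to remove microglia. All cultures of both groups carried this treatment, each culture was made from several pups, and oligodendrocytes remained in it. In 1 group the AECs were untreated (n = 2), and in the other they were kept without glucose and under hypoxia for 15 h (n = 2), a model of ischemia called oxygen-glucose deprivation (OGD). Labeled RNA of each culture was hybridized to its own array with 1 color, and all 4 arrays lay on 1 slide and were scanned in 1 run. The study's methods state that wells were seeded from independent cultures of different pups, and with 2 cultures per group the p-values rest on the spread of few samples.

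NF-kB is a pair of *Rel*-family proteins that waits in the cytoplasm, bound by IkB proteins. Signals from cytokine or Toll-like receptors activate the IkB kinase, IkB is degraded, and the freed dimer enters the nucleus and turns on genes of inflammation and survival. Several genes of the system, *Nfkbia* and *Tnfaip3* among them, are also targets of NF-kB, so that the pathway makes its own brakes, and in astrocytes it drives cytokine and chemokine production after injury.

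The promoters of the members that have an entry in the RefSeq table are shown first because NF-kB binds to a short sequence, the kB site, near the starts of such genes. Of the 10 members, 7 had an entry, with 10 windows of 300 bases in all (250 before the start of a transcript and 50 after it, GRCm38.p6). The kB consensus, a motif of 10 bases with several positions open to 2 or more letters, was searched on both strands. It was found in 7 of these 10 windows, which belonged to 5 genes, and in 4.51% of all 32851 windows of the table. Windows of *Nfkb2* overlap each other and share a match, so that the 7 are not separate stretches. Overlapping matches are printed as 1 stretch. The windows of *Rela* and *Nfkbib* held none, nor did 1 of the 2 windows of *Tnfaip3*, and *Nfkb1*, *Relb* and *Nfkbiz* are named only. The motif was chosen after these promoters had been seen, and a match is a description of the letters, not a binding site. The stretches below are written 5′ to 3′ on the strand of the gene, with the match in capitals. Each of the 5 genes with a match is shown by 1 stretch. Another match in the same window of *Tnfaip3* and those in other windows of *Nfkb2* are left out. Of the genes shown, *Nfkbie* was called lower after OGD and *Nfkb2* was not called, while *Rela* and 2 probes of *Nfkbib*, without a match, were called higher, though negative with the spiked-in scaling described below.
Tnfaip3, minus strand, chr10:19015411-19015437: actggaatttccatcGGAAATCCCCct
Nfkbia, minus strand, chr12:55492652-55492691: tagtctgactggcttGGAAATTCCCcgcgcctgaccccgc
Nfkbie, plus strand, chr17:45555579-45555618: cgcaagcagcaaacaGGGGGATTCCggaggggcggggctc
Rel, minus strand, chr11:23771036-23771076: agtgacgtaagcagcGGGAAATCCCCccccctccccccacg
Nfkb2, plus strand, chr19:46305690-46305729: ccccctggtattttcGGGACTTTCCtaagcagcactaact

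The probes of *Nfkb1* and *Nfkbib* are shown because probes of 1 gene changed unequally in both. They are given as the array's design holds them, 5′ to 3′, with positions on mm9. Of the 60 bases of a probe only 30 are printed where the probe may lie outside the coding sequence. The hexamer AATAAA, the common signal for 3′ end formation, is in capitals where a probe holds it. It was found in 4 of the 16 member probes and in 12.6% of all 39429 probes.
Nfkb1 A_55_P1968738, minus strand, chr3:135247621-135247680, bases 21 to 50: ttttacttttatAATAAAagtacaagcaca
Nfkb1 A_55_P1968743, minus strand, chr3:135254550-135254609: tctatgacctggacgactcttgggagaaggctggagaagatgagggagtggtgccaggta
Nfkbib A_55_P1989733, chr7:29544160-29544219: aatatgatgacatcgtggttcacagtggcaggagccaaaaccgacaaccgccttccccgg
Nfkbib A_66_P120882, chr7:29545252-29546647: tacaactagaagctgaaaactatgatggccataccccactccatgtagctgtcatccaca
Nfkbib A_55_P2051666, chr7:29543270-29543329, bases 1 to 30: catttgtgaagcgatggctattttgattgc

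In AECs after 15 h of OGD, *Tnfaip3* was 17.1-fold above its untreated level, *Nfkbiz* 5.87-fold and *Nfkbia* 2.94-fold, while the inhibitor *Nfkbie* and the distal probe of *Nfkb1* were 3.26-fold and 3.04-fold below it. These values are relative to the 75th percentile of each array's signal, the scaling named in the study's methods. All 10 members had a probe that entered the fit, and 15 of the 16 probes were tested, each of them well above background on all 4 arrays. With limma and Benjamini-Hochberg adjustment over 28254 probes, 10 member probes were higher after OGD (background over all probes tested 37.9%), 3 were lower (background 27.1%) and 2 did not pass an adjusted p of 0.05. In either direction the background was 65.0%, so that a call alone was common on these arrays. The groups did not overlap in any of the 15 member probes, and they did not overlap in 84.7% of all probes tested. The median log2 fold change was 0.79 over the 15 probes and 0.18 over all probes. *Tnfaip3* alone passed the study's fold limit of 10 together with the adjusted p, as 0.811% of all probes did upward and 0.524% downward. Signals of different probes are not compared with each other, since a probe's brightness depends on its sequence.

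The sign of the moderate changes depends on the scaling. From untreated to OGD, the 75th percentile fell by 1.37 on the log2 scale, while the mean of 9 probes for spiked-in control RNA moved by -0.08. When the arrays were scaled on these spiked-in controls, every log2 fold change of a member was 1.29 lower. On that scale 2 member probes were higher (background 4.45%) and 11 were lower (background 82.0%). The medians were -0.50 over the members and -1.11 over all probes. *Tnfaip3* (2.81) and *Nfkbiz* (1.26) remained higher on that scale by limma, *Nfkbia* had a log2 fold change of 0.26 and the other 12 probes had negative values. In words, most of the increases given below are increases relative to the bulk of the transcripts on the array, and not relative to the spiked-in controls. By the study's methods the same amount of total RNA was labeled from each culture. The spiked-in scale therefore does not show cell number or total RNA per cell. The cause of the fall against the controls was not tested. In bulk cultures, fewer cells of a type and less RNA of a gene per cell cannot be told apart.

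**Figure D1:**
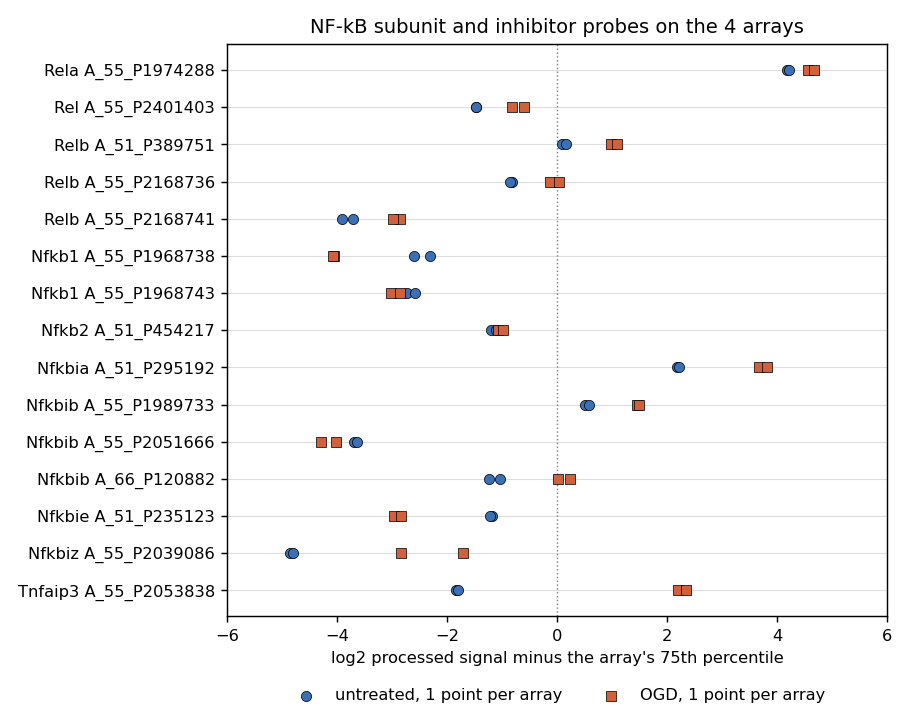
Normalized log2 signal of the 15 tested member probes, 1 point per array, as log2 processed signal minus the array's 75th percentile (horizontal axis), for 2 untreated AEC cultures (circles) and 2 cultures after 15 h of OGD (squares). The OGD points of Tnfaip3, Nfkbiz and Nfkbia lie to the right of their untreated points, those of Nfkbie and of 1 Nfkb1 probe to the left, and the 2 OGD cultures of Nfkbiz lie apart.

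Among the subunits that carry a transactivation domain, *Rela*, *Rel* and *Relb* were all higher after OGD relative to the 75th percentile and all lower on the spiked-in scale. *Rela* encodes p65, the subunit of the classical dimer. Its processed signal was 38485 and 39883 in the untreated cultures and 20865 and 19763 after OGD. On the normalized log2 scale this was 4.19 ± 0.02 untreated and 4.61 ± 0.08 after OGD (SD, n = 2), without overlap. The increase was 1.34-fold (log2 fold change 0.42, SE 0.09, limma adjusted p = 0.0163), and it turned to -0.86 with spiked-in scaling and to -0.25 with quantile normalization. It also lost its call with a 75th percentile of only the probes above background (limma adjusted p = 0.0649). The call was lost too without untreated replicate 1 (log2 fold change 0.41) and without untreated replicate 2 (0.44), with 1 untreated array left.

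*Rel* encodes c-*Rel*, which is best known from lymphocytes. Its probe A_55_P2401403 (chr11:23637051-23637110) gave signals of 770 and 772 in untreated AECs and 500 and 512 after OGD. The normalized values were -1.48 ± 0.01 untreated and -0.71 ± 0.16 after OGD (SD, n = 2), so that both OGD cultures lay above both untreated ones. The change was 1.70-fold upward (log2 0.77, SE 0.11, limma adjusted p = 0.00679), with a value of -0.52 on the spiked-in scale. The call was lost without untreated replicate 1 or untreated replicate 2, with 1 untreated array left, at log2 fold changes of 0.77 and 0.76. The other *Rel* probe, A_51_P187461, was not well above background on any array and gets no fold change.

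*Relb* encodes the partner of p52 in the alternative pathway, and its 3 probes moved together. The brightest probe, A_51_P389751, had signals of 2276 and 2425 untreated and 1752 and 1655 after OGD, and normalized values of 0.13 ± 0.05 and 1.04 ± 0.08 (SD, n = 2). It was higher by 1.88-fold (log2 0.91, SE 0.09, limma adjusted p = 0.00267), with -0.38 on the spiked-in scale. The other *Relb* probes were higher by 1.72-fold (A_55_P2168736, log2 0.79) and 1.87-fold (A_55_P2168741, log2 0.90), with limma adjusted p of 0.00413 and 0.00488, and they too were negative with spiked-in scaling (-0.50 and -0.39). A_51_P389751 and A_55_P2168736 share 9 bases at their ends and are not independent measurements, while the start of A_55_P2168741 lies 11336 bases from that of the first. In none of the 3 pairs of *Relb* probes did the within-array difference pass the test, with changes of 0.12, 0.01 and -0.12 on the log2 scale and 95% intervals that lay within -0.50 and 0.42.

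*Nfkb1* and *Nfkb2* encode the precursors p105 and p100, which contain an IkB-like part of their own and are processed to p50 and p52. The 2 probes of *Nfkb1* did not change by the same amount. A_55_P1968738, at position 4056 of the transcript, fell in signal from 427 and 356 in untreated AECs to 53.3 and 46.0 after OGD. Its normalized values were -2.46 ± 0.20 and -4.07 ± 0.02 (SD, n = 2), and both OGD cultures were far below both untreated ones. The log2 fold change was -1.60 (SE 0.13, 95% interval -1.96 to -1.25, limma adjusted p = 0.00183), which shrank to -0.70 with normexp background correction (an offset of 50 is added to every signal), still with the call, and was -2.89 with spiked-in scaling.

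A_55_P1968743, at position 2747 of the *Nfkb1* transcript, had signals of 320 and 359 untreated and 109 and 107 after OGD. Its normalized values were -2.66 ± 0.10 and -2.94 ± 0.12 (SD, n = 2), close together but without overlap. The log2 fold change was -0.27 (SE 0.11, 95% interval -0.58 to 0.03), with a limma adjusted p of 0.0954 that did not pass the limit. It passed as lower with spiked-in scaling (-1.56) and with a 75th percentile of only the probes above background (-0.43), and was 0.18 with normexp correction. With 75th-percentile scaling both *Nfkb1* probes were thus negative and differed in the size of the change and in the call, and the distal probe was called lower under all 16 alternatives.

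The difference between the *Nfkb1* probes does not depend on the scaling between arrays, because both are read on the same array. The log2 signal of A_55_P1968738 minus that of A_55_P1968743 was 0.42 and -0.01 in the untreated cultures and -1.03 and -1.22 after OGD. In words, the distal probe lost signal against the upstream one in both OGD cultures, and the groups did not overlap. The change was -1.33 (SE 0.18, 95% interval -1.81 to -0.85, limma adjusted p = 0.00449 over 7734 pairs), or 2.51-fold. With normexp background correction it shrank to -0.88 and still passed. Unequal change between probes of 1 gene was common, as 48.3% of the pairs of 4856 genes passed the same test. The probe starts lie 6929 bases apart on the genome.

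*Nfkb2* had 1 probe, A_51_P454217 (chr19:46386146-46386285), with signals of 921 and 1003 untreated and 420 and 392 after OGD. The normalized values were -1.16 ± 0.07 and -1.03 ± 0.06 (SD, n = 2). The log2 fold change of 0.13 (SE 0.09, 95% interval -0.12 to 0.38) did not pass (limma adjusted p = 0.268), and it was -0.02 with a 75th percentile of only the probes above background and -1.16 with spiked-in scaling. Its neighbors in the order of the members by fold change are the upstream probe of *Nfkb1*, and the probe of *Rela*, and its interval overlaps with both of theirs.

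Among the IkB proteins that hold NF-kB in the cytoplasm, *Nfkbia* was higher after OGD and *Nfkbie* was lower. The probes of *Nfkbib* went both ways with the scaling of the study's methods, but not with spiked-in scaling or normexp correction. *Nfkbia* encodes IkB-alpha, the inhibitor that is degraded and made anew within a round of NF-kB activation. Its probe (A_51_P295192, chr12:56590945-56591440) had signals of 9594 and 9976 untreated and of 11263 and 10925 after OGD. *Nfkbia* thus belongs with *Tnfaip3* and *Nfkbiz* to the genes whose signal was higher after OGD even before any scaling. The normalized values were 2.19 ± 0.03 and 3.74 ± 0.10 (SD, n = 2), a 2.94-fold increase (log2 1.55, SE 0.09, limma adjusted p = 0.00118). With spiked-in scaling the log2 fold change was 0.26 and did not pass (limma adjusted p = 0.0785).

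*Nfkbie* encodes IkB-epsilon, a late-acting inhibitor of p65 and c-*Rel*. Its signal was 933 and 929 in the untreated cultures and 113 and 108 after OGD, and the normalized values were -1.21 ± 0.02 and -2.91 ± 0.09 (SD, n = 2). Both OGD cultures were far below both untreated ones. The probe (A_51_P235123, chr17:45700000-45700059) fell by 1.70 on the log2 scale (SE 0.09, 95% interval -1.95 to -1.46, limma adjusted p = 0.000965). It was called lower under all 16 alternatives, with a log2 fold change of -2.99 with spiked-in scaling.

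*Nfkbib* encodes IkB-beta, and its 3 probes did not move together. The signals of A_55_P1989733 were 3021 and 3233 untreated and 2415 and 2170 after OGD, with normalized values of 0.54 ± 0.06 and 1.46 ± 0.03 (SD, n = 2). A_66_P120882, whose coordinates span more than its own length, had 898 and 1044 untreated and 898 and 913 after OGD, with normalized values of -1.15 ± 0.14 and 0.13 ± 0.15. A_55_P2051666 had 164 and 172 untreated and 44.8 and 47.6 after OGD, with normalized values of -3.68 ± 0.03 and -4.17 ± 0.20. The first 2 were thus above their untreated level after scaling and the last one below it.

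By limma, A_55_P1989733 was 1.90-fold higher (log2 0.92, adjusted p = 0.00218) and A_66_P120882 2.42-fold higher (log2 1.28, adjusted p = 0.00293), with -0.37 and -0.01 on the spiked-in scale. A_55_P2051666 was lower by 0.49 on the log2 scale (limma adjusted p = 0.0316). This call was lost with the methods' t-test (0.116) and without a filter on dim probes (0.0540 by limma). It was also lost without untreated replicate 1 (log2 fold change -0.52) and without untreated replicate 2 (-0.47), with 1 untreated array left. The log2 fold change was 0.12 with normexp correction. Within arrays, A_55_P1989733 gained 1.41 on A_55_P2051666 (SE 0.13, limma adjusted p = 0.00124), and A_55_P2051666 changed against A_66_P120882 by -1.77 (SE 0.11, limma adjusted p = 0.00055), and with normexp correction these changes shrank to 0.76 and -1.10 and still passed. Between A_55_P1989733 and A_66_P120882 the change was -0.35 and did not pass (limma adjusted p = 0.0720, 95% interval -0.68 to -0.03). For *Nfkbib* the size of the change thus differed between A_55_P2051666 and each of the other probes. Opposite signs, seen with the scaling of the study's methods, depended on the processing. With spiked-in scaling all 3 values were negative, with A_55_P2051666 at -1.78. With normexp correction all 3 were positive, with A_55_P1989733 at 0.88 and A_66_P120882 at 1.22. A_55_P2051666, at position 2005 of the transcript, is the farthest downstream of the 3.

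**Figure D2:**
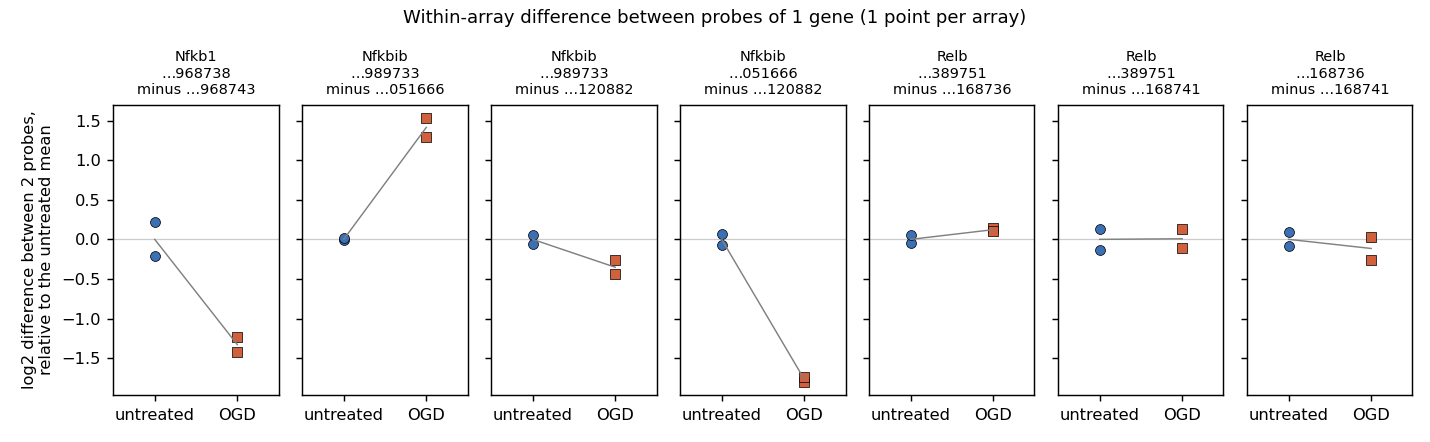
Difference in log2 signal between 2 probes of 1 gene on the same array (vertical axis, relative to the untreated mean), 1 point per array, for the 7 pairs of member probes in untreated AECs (circles) and after 15 h of OGD (squares); the lines join the group means. The pair of Nfkb1 and both Nfkbib pairs that include A_55_P2051666 changed by 1.33 to 1.77 in size, and the Relb pairs by 0.12 or less.

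*Nfkbiz* encodes IkB-zeta, a nuclear member of the family that is itself induced by inflammatory signals and works with p50 on a set of secondary targets. Its signal was 73.5 and 77.6 in untreated AECs and 123 and 238 after OGD. The normalized values were -4.86 and -4.80 untreated and -2.85 and -1.71 after OGD, and the SD of 0.81 between the OGD cultures was the largest of the 15 member probes tested. The increase was 5.87-fold (log2 2.55, SE 0.42, 95% interval 1.38 to 3.73, limma adjusted p = 0.00942) and 1.26 on the log2 scale with spiked-in scaling. Without OGD replicate 1 it was 3.12 and without OGD replicate 2 it was 1.98. The call was lost with the methods' t-test (adjusted p = 0.0818). It was also lost without untreated replicate 1 (log2 fold change 2.52) and without untreated replicate 2 (2.58), with 1 untreated array left.

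*Tnfaip3* encodes A20, which edits ubiquitin chains on *Ripk1* and *Traf6* and so shuts off signaling to the IkB kinase. Its probe (A_55_P2053838, chr10:18720776-18720835) rose in signal from 598 and 618 in untreated AECs to 4072 and 3951 after OGD. The normalized values were -1.82 ± 0.02 and 2.27 ± 0.10 (SD, n = 2), with both OGD cultures far above both untreated ones. The increase was 17.1-fold (log2 4.09, SE 0.09, 95% interval 3.84 to 4.35, limma adjusted p = 0.000729). *Tnfaip3* was called higher under all 16 alternatives, and its log2 fold change was 2.81 with spiked-in scaling, below the fold limit of 10.

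**Figure D3:**
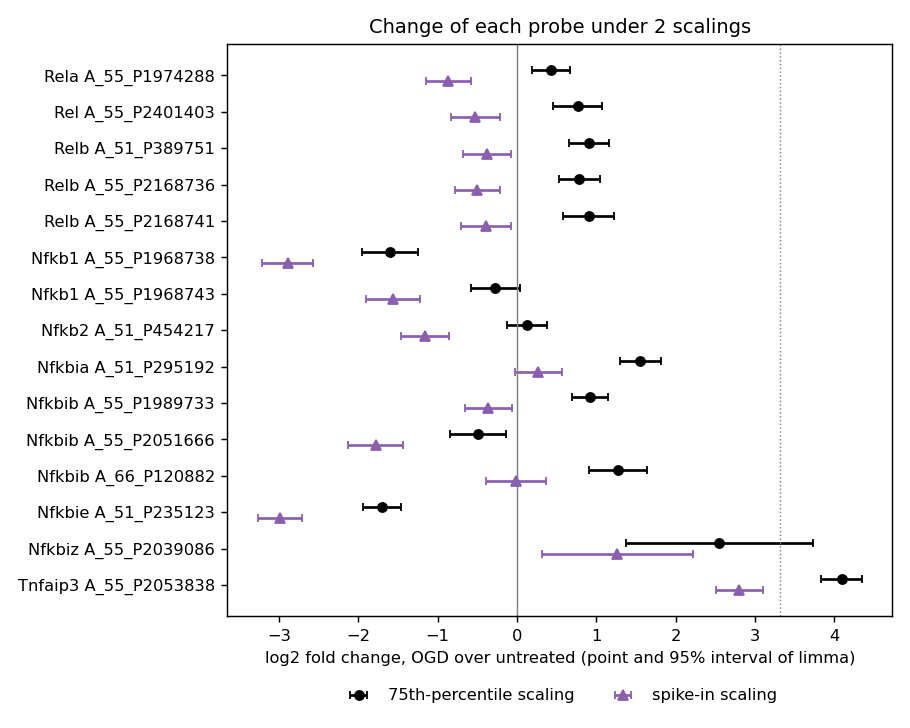
Log2 fold change of OGD over untreated for the 15 tested member probes (horizontal axis), with the 95% interval of limma, under 75th-percentile scaling (circles) and scaling on spiked-in controls (triangles); the solid line marks no change and the dotted line 10-fold. All values are 1.29 lower on the spiked-in scale, where Tnfaip3 (2.81) and Nfkbiz (1.26) lie to the right of 0 with their intervals and the intervals of the Relb, Rel and Rela probes lie to the left of it.

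The other genes of the pathway were counted with 1 probe each, the brightest that entered the fit, and the background over all 21061 genes was 37.1% higher and 27.8% lower, with a median log2 fold change of 0.16. Upstream of the members the counts were mixed. Of 11 ligand genes 7 were tested, 4 were higher and 1 was lower (median 0.55). *Tnfsf11*, which encodes RANKL, had signals of 9.44 and 8.40 untreated and 20.1 and 16.6 after OGD and was higher by 2.41 on the log2 scale, a value that was 1.48 with normexp correction and rests on an untreated group with only 1 array well above background. *Lta*, which encodes lymphotoxin-alpha, was higher by 1.92, with signals of 75.7 and 76.7 untreated and 120 and 103 after OGD. *Tnfsf13b*, which encodes BAFF, was lower and not well above background after OGD, and was at least 1.06-fold lower (limma adjusted p = 0.00128 for the fitted value, not for the bound), although normexp correction put it at 0.98 on the log2 scale. The classical ligands *Tnf*, *Il1a* and *Il1b*, and *Cd40lg*, named here after their values had been seen, were not well above background on any array.

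Of 14 receptor genes tested, 6 were higher and 6 lower (median -0.25). *Il1rl1*, the IL-33 receptor, and *Il1rap*, the shared accessory chain of the IL-1 family receptors, were higher by 2.47 and 2.26 on the log2 scale, with limma adjusted p of 0.00150 and 0.00120, and other probes of *Il1rap* went down to 0.30. *Tlr4*, the lipopolysaccharide receptor, was lower by 2.50, with signals of 416 and 421 untreated and 28.1 and 28.9 after OGD (-1.23 with normexp correction), and *Il1r1*, the signaling receptor for IL-1, was lower by 1.66. Of 23 adaptor and kinase genes tested, 4 were higher and 10 lower (median -0.23). *Traf6* (1.36, with 0.94 to 2.80 over its probes) and *Chuk* (0.76), which encodes IKK-alpha, were higher, although with spiked-in scaling *Chuk* was negative (-0.53) and *Traf6* did not pass (0.07, limma adjusted p = 0.592), and *Tab1* (-1.79) and *Ikbke* were lower, *Ikbke* by 4.01-fold, although its log2 fold change was -0.28 with normexp correction. The other genes of the IkB kinase complex, *Ikbkb* (-0.82) and *Ikbkg* (-0.37), were called lower too and are named after their values had been seen.

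Of 14 genes for ubiquitin-editing and related brakes, 3 were higher and 5 lower (median 0.10). *Tnip2*, an A20-binding inhibitor, was higher by 1.14 and *Rnf11*, a part of the A20 complex, by 0.96 on the log2 scale, though both were negative with spiked-in scaling (-0.15 and -0.33). The deubiquitinase gene *Cyld* was lower by 1.79 at its brightest probe and at 0.66 at its other probe, and *Zc3h12a*, which encodes the ribonuclease Regnase-1, was not well above background after OGD and at least 1.48-fold lower (limma adjusted p = 0.00328 for the fitted value), although normexp correction put it at 0.83 on the log2 scale. The remaining IkB genes were *Bcl3* (-0.81) and *Nfkbid* (-0.78), both called lower, and *Nfkbil1*, which was higher by 0.40 and negative with spiked-in scaling (-0.89). With normexp correction *Nfkbid* was at 0.24.

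Among 34 genes known as NF-kB targets that are on the array, 29 were tested, 20 were higher and 3 lower (median 0.80), and 4 were over 10-fold higher by their fold or its lower bound. Of the 20, *Cxcl2* and *Csf2* (at least 7.65-fold higher, named after its values had been seen) were not well above background in untreated AECs and entered the fit only through the OGD group. *Il6* rose in signal from 94.2 and 81.8 untreated to 1072 and 1129 after OGD (log2 fold change 5.02, limma adjusted p = 0.000729, and 4.27 with normexp correction), and *Ptgs2*, which encodes cyclooxygenase-2, rose from 369 and 361 to 3896 and 3800 (4.77). The chemokine gene *Cxcl2* was not well above background in untreated AECs and at least 31.4-fold higher after OGD (limma adjusted p = 0.000765 for the fitted value). This bound is 12.8-fold on the spiked-in scale, and with normexp correction the log2 fold change of *Cxcl2* was 2.46. *Csf1* was lower by 1.31 at its brightest probe but went up to 1.28 at another, and *Traf1* was lower by 1.03. With spiked-in scaling 11 target genes were higher and 16 lower (median -0.49), against 3.83% and 83.3% of all genes.

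**Figure D4:**
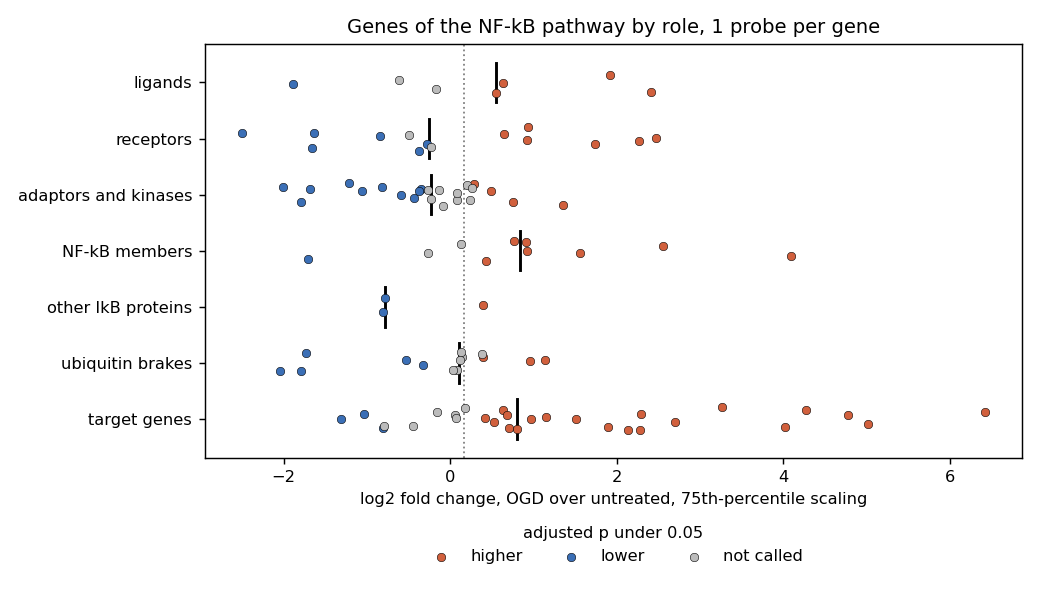
Log2 fold change of OGD over untreated under 75th-percentile scaling (horizontal axis) for the tested genes of each role in the NF-kB pathway, 1 point per gene at its brightest probe; black bars are list medians and the dotted line is the median of all genes (0.16). Target genes (median 0.80) reach farthest to the right, where the fitted value of Cxcl2 (6.42) rests on an untreated signal not well above background, and adaptors and kinases (median -0.23) gather around and to the left of 0.

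Over the 90 tested genes of these lists other than the members, 38 were higher and 27 lower. Of all genes, 37.1% were higher and 27.8% lower, so such calls were common on these arrays. Leaving out an untreated array leaves 1 array in that group, so counts of calls are not given for it here. With spiked-in scaling the counts of the 90 were 16 higher and 69 lower, beside 3.83% and 83.3% of all genes.

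Cell type markers were counted the same way. Of all genes 37.1% were higher and 27.8% lower, and with spiked-in scaling 3.83% and 83.3%. Of 13 microglia markers 12 were tested, 4 were higher and 2 lower, and the sum of their levels relative to the 75th percentile was 2.40 and 2.11 untreated and 6.83 and 6.60 after OGD. These sums weigh bright probes more, and *Cd68* made up most of the rise in the microglia sum. *Cd68*, which encodes a lysosomal protein of microglia and macrophages, was higher by 3.14 on the log2 scale, with levels of 0.54 and 0.56 untreated and 4.85 and 4.87 after OGD. The other markers called higher were *Csf1r* (1.14), *Aif1* (1.03) and *C1qb* (0.70), all negative with spiked-in scaling (-0.15, -0.26 and -0.59). *Tmem119* (-0.88) and *Trem2* (-0.93) were called lower but were at 0.18 and 0.67 with normexp correction. None of the 13 was below background on all 4 arrays. All 10 astrocyte markers were well above background on all 4 arrays, with summed levels of 168 and 149 untreated and 228 and 233 after OGD, as the label of the cultures implies. Of these 10, 6 were higher and 1 lower (median 0.67), and with spiked-in scaling 8 were lower (median -0.62). The members counted by gene at the brightest probe were 7 higher and 1 lower (median 0.84), although 3 member genes had a probe called lower. With spiked-in scaling the members by gene were 2 higher and 7 lower (median -0.45). Of 10 oligodendrocyte lineage markers tested, 4 were higher and 4 lower, with summed levels of 29.4 and 29.6 untreated and 26.6 and 25.7 after OGD. Of 8 meningeal fibroblast and vascular markers tested, 2 were lower and 6 did not pass (21.3 and 17.1 untreated, 12.1 and 13.8 after OGD), and of 7 neuron markers 4 were higher and 2 lower (8.70 and 8.31 untreated, 9.58 and 9.25 after OGD). With spiked-in scaling, 1 microglia marker was higher and 9 were lower, and 1 neuron marker was higher and 5 were lower. On that scale 9 oligodendrocyte lineage markers and 8 meningeal fibroblast and vascular markers were lower and none higher. The part of other cells in the changes of the NF-kB genes was not tested.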

How the data were processed

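RNA of 2 untreated and 2 OGD AEC cultures was measured on 1-color Agilent mouse arrays. The deposited values are the processed signal, an intensity per spot that Feature Extraction 11.5.1.1 (per the labels) had corrected for background within each array, with flags for spots well above background. They had not been scaled between arrays: the 75th percentile of the signal was 2135, 2164, 887 and 776. Spots well above background were 64.5 to 73.7% of all spots. Precision is limited by having 2 arrays per group. The deposited series table held the same intensity and served as an alternative.

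Outlier and control spots were left out, spots of a probe were averaged as log2, and each array's 75th percentile was subtracted. Probes flagged well above background on every array of either group were kept (28262) and 28254 could be fitted with limma 3.58.1 in R 4.3.3, with Benjamini-Hochberg adjustment. limma took the place of the unpaired t-test of the study's methods, because 2 arrays per group leave 2 residual degrees of freedom. An exact permutation test of 2 against 2 cannot go below p = 0.333 and was not used. Differences between probes of 1 gene were fitted the same way on each array's own difference. A probe dim in 1 group has only a bound, from the lowest signal well above background, and its adjusted p is that of the fitted value. Such a probe passed the filter through its bright group alone. The normexp alternative adds an offset of 50, which pulls low signals together before scaling, and it raised the median log2 fold change over all genes from 0.16 to 0.51. The scripts were tested on simulated data. The members and the gene lists were chosen with earlier results of these data known. Named genes were every member probe, the 2 largest increases and decreases called in each pathway list, and *Il6* and *Ptgs2*. Other genes, such as the cell type markers, the undetected ligands and the remaining IkB kinase genes, were named after their values had been seen. Summed levels add the scaled signals of a list's brightest probes. Alternatives were the t-test, other priors, scalings, filters and background corrections, a block and single arrays left out. With a single array left out, its group had 1 array and the spread within groups came from the other group alone. Promoter positions are on GRCm38.p6, and probe positions are on mm9 as in the deposited files. No annotation of mm9 was used here, so exons and UTRs are not stated.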

Additional observations from a re-analysis of the deposited data

How the results depend on the processing

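Of 240 member fold changes recomputed under 16 alternatives, 213 kept their direction and side of the limit, 13 kept their direction and lost a call, 2 kept it and gained one, and 12 changed sign, some with a change of call. The calls of *Tnfaip3*, *Nfkbie* and the distal *Nfkb1* probe held throughout. With spiked-in scaling the member counts were 2 higher, 11 lower and 0 over 10-fold, against 10, 3 and 1, and the pathway counts were 16 higher and 69 lower, against 38 and 27. The signs that turned with it, by construction of the 1.29 shift, were those of *Rela* (-0.86), *Rel* (-0.52), *Relb* (-0.38, -0.50 and -0.39), *Nfkb2* (-1.16) and *Nfkbib* (-0.37 and -0.013). The other signs that turned were *Rela* with quantile normalization (-0.25), *Nfkb2* with a 75th percentile of only the probes above background (-0.024), and *Nfkb1* A_55_P1968743 (0.18) and *Nfkbib* A_55_P2051666 (0.12) with normexp correction, which moved the median of all genes to 0.51. The cause was not tested. Leaving out single arrays gave 25 to 37 higher and 16 to 26 lower pathway genes, 7 to 10 higher and 2 to 3 lower member probes, and 3 to 4 member pairs called. The methods' t-test passed 12 member probes unadjusted and 11 after Benjamini-Hochberg adjustment. With the mean over a gene's probes, the median was -0.14 for adaptors and kinases and 0.96 for target genes. Arrays of equal replicate number did not deviate together (correlation -0.06 across probes), and with the replicate number as a block the member counts were 10 higher and 3 lower and 3 pairs were called. A slide block was not run, since all arrays lay on 1 slide. With 2 arrays per group the intervals are wide, and the value of a dim probe such as *Nfkbib* A_55_P2051666, at 44.8 after OGD, is about the size of the normexp offset of 50.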

Other observations

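Over the probes tested on the array, those that hold AATAAA had a median log2 fold change of 0.03 and those without it 0.20, and 48.7% against 41.6% lay below 0. Among the member probes that hold it, *Nfkb1* A_55_P1968738 and *Nfkbie* were called lower, *Rela* was called higher and the dim *Rel* probe was not tested. These are descriptions of probes, which share arrays and genes, and no test was made.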
